A study of Mus musculus with 6 samples.

Results

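Tendon and myotendinous junction markers were read in gastrocnemius (Gas) muscle of mice with and without miR-92b. The set holds 9 genes, Tnmd, Scx, Mkx, Thbs4, Comp, Chad, Cilp, Cilp2 and Tnc, taken by symbol from the 34714 gene symbols of the count table, with the collagens left out. RNA came from untreated male mice 8 weeks old, with 3 libraries from C57BL/6 wild-type (WT) mice and 3 libraries from miR-92b knockout (M92KO) mice. M92KO is a purchased global knockout of the C57BL/6JGpt strain, so every cell type of the muscle lacks the gene, and the WT mice are described as age-matched and not as littermates. The labels number the replicates without stating that each is a separate animal, and the p-values measure the spread between these samples. The comparison asks how the transcriptome of Gas muscle differed without miR-92b.

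Tendon carries the pull of a muscle to bone, and the myotendinous junction is the folded border at which muscle fibres anchor in tendon matrix. Scleraxis (Scx) and mohawk (Mkx) are transcription factors of tendon cells, and tenomodulin (Tnmd) is a membrane glycoprotein of mature tendon cells that depends on Scx. Thrombospondin 4 (Thbs4), cartilage oligomeric matrix protein (Comp), chondroadherin (Chad), the cartilage intermediate layer proteins (Cilp and Cilp2) and tenascin C (Tnc) are secreted into the matrix. Whole Gas muscle is made up mostly of muscle fibres and holds only a little tendon.

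The knockout removes both mature strands of miR-92b, which are shown because their seeds (bases 2 to 8, in capitals) are the part that pairs with a target. They are written 5′ to 3′ and were taken from RefSeq (GRCm38.p6, minus strand of chromosome 3).
mmu-miR-92b-3p, chr3:89227126-89227147: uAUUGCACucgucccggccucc
mmu-miR-92b-5p, chr3:89227165-89227188: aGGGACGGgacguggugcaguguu
The Mir92b gene (chr3:89227116-89227198) overlaps no other annotated gene. It lies 27 bases from Mtx1 and 278 bases from Thbs3, a thrombospondin of the same family as Thbs4. Mir92b itself was not analysed here, so the table gave no direct check of the deletion.

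None of the 9 tendon markers held a 7mer or 8mer match to either seed in an annotated 3′-UTR. The search read the sense strand for GTGCAATA, GTGCAAT or TGCAATA (miR-92b-3p) and for CCGTCCCA, CCGTCCC or CGTCCCA (miR-92b-5p), in which the 8-base word contains both shorter ones. Among the 13505 tested genes with a 3′-UTR, 14.5% held such a match for miR-92b-3p and 5.92% for miR-92b-5p. Mkx, with the longest 3′-UTR of the set (2347 bases), held 1 match of only 6 bases to miR-92b-3p. The 3′-UTRs of the other 8 genes were between 161 bases (Thbs4) and 648 bases (Tnc). A missing match says only that these letters are absent from the annotated 3′-UTRs.

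The libraries held between 33160508 and 48209846 counts, and every M92KO total lay below every WT total, so depth and genotype cannot be told apart. The tissue carried the defining markers of fast skeletal muscle, with 10 fibre genes summing to between 120349 and 133892 counts scaled to a common library size (CPM). Skeletal actin (Acta1), the most abundant of them, differed by 0.0070 between genotypes on the log2 scale. No pair of libraries was alike within sampling noise. M92KO replicate 1 stood apart from the other M92KO libraries, with a chi-square per degree of freedom of 57.4 against each, while those differed from each other by 10.9. Against WT replicates 1, 2 and 3, M92KO replicate 1 stood at 39.9, 39.2 and 39.5, lower than against its own group. WT replicate 1 stood apart in Ibsp and a few other genes of bone and cartilage, which are given beside the matrix genes.

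All 9 tendon markers passed the filter on low counts and were above 3 counts in every library. Per kilobase of exon, Thbs4 was highest in WT muscle at 25.6 ± 3.05 CPM per kb (SD, n = 3), followed by Cilp at 6.85 ± 3.31, Tnmd at 3.88 ± 0.574 and Scx at 1.65 ± 0.130 CPM per kb. Tnc (1.13 ± 0.840), Chad (0.572 ± 0.118), Comp (0.519 ± 0.429) and Cilp2 (0.334 ± 0.0801 CPM per kb) came next, and the individual WT values of each of these overlapped with those of the gene before it. Mkx was lowest at 0.149 ± 0.0488 CPM per kb. Thbs4 and Cilp together made up between 81.2% and 92.1% of the summed CPM of the set.

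In M92KO muscle, Tnmd and Scx were lower at an unadjusted p-value under 0.05 (edgeR), the threshold the study used, and no member was higher at that threshold. Among all 15788 genes tested, 6.92% were lower and 5.47% higher by the same rule. With p-values adjusted over all genes, none of the 9 members passed 0.05, and neither did any gene of the table (0%), although edgeR gave 1955 genes an unadjusted p-value under 0.05 and DESeq2 called 312 genes after adjustment. The members' median log2 fold change was -0.37, with 8 of 9 values negative, and the median over all genes tested was -8.1e-05. Fewer cells of a type and less RNA per cell cannot be told apart in these whole-muscle libraries.

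**Figure D1:**
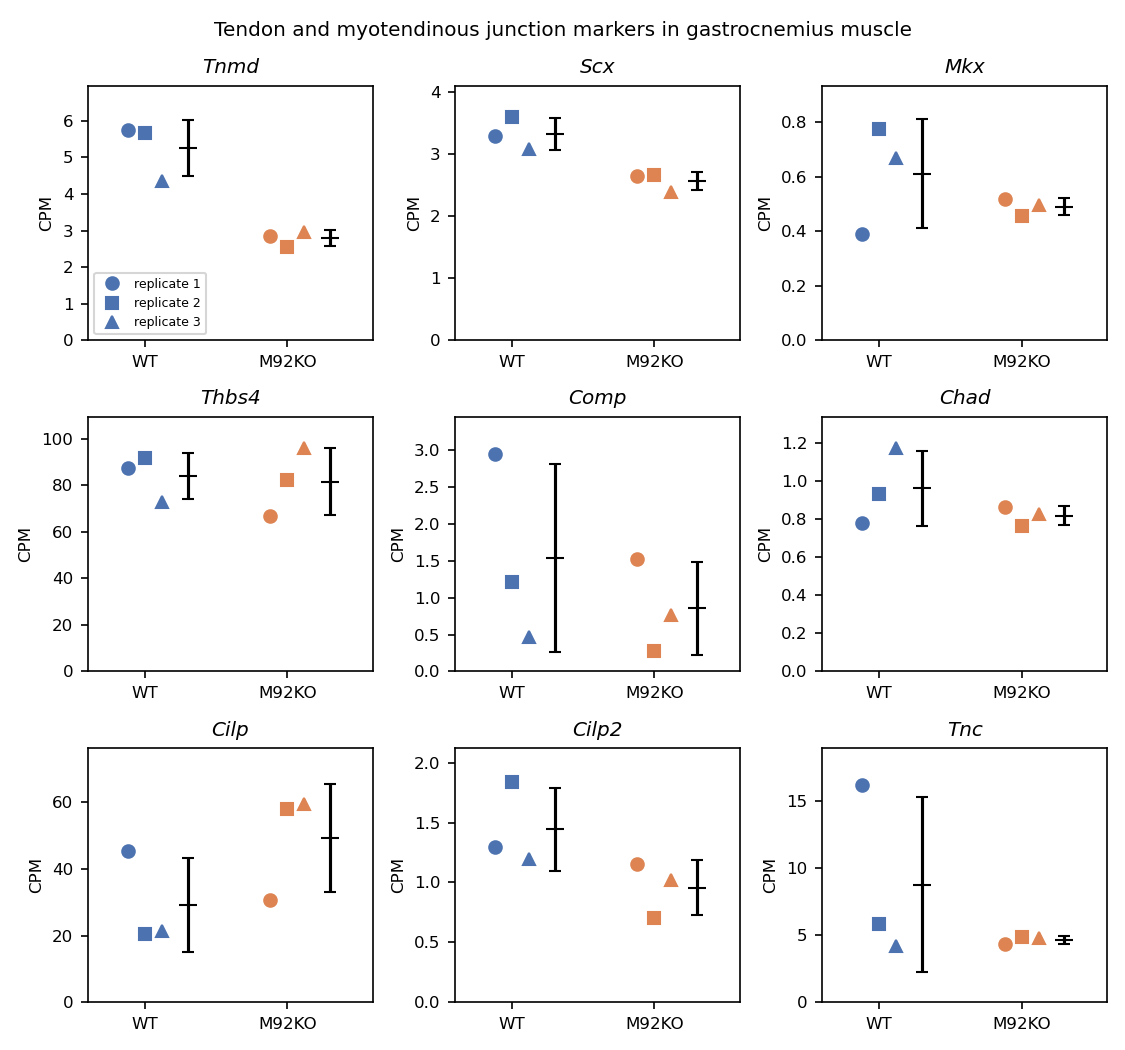
CPM of each tendon marker (vertical axis, from 0) in each WT and M92KO library, with a symbol for each replicate number and bars for the mean ± SD of each genotype. Tnmd, Scx and Cilp2 are lower in every M92KO library than in every WT library, whereas Cilp, Comp and Tnc spread over their groups with replicate 1 the highest WT library in each.

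Tnmd had the smallest p-value of the set. The WT libraries held 265, 219 and 208 Tnmd counts (5.73, 5.67 and 4.36 CPM), and the M92KO libraries held 99, 84 and 108 counts (2.85, 2.56 and 2.97 CPM). The highest M92KO value thus lay below the lowest WT value. Mean levels were 5.25 ± 0.777 CPM in WT and 2.80 ± 0.210 CPM in M92KO muscle (SD, n = 3), a log2 fold change of -0.91 (SE 0.16) with an adjusted p-value of 0.165 in edgeR. DESeq2, with the same fold change, gave an adjusted p-value of 0.00136. An exact two-sided permutation test gave p = 0.1, the smallest value that 3 against 3 libraries allow. By edgeR's p-value Tnmd ranked 14 among all genes lower in M92KO muscle. Its fold change stayed between -1.03 and -0.84 when each library was left out in turn, and the unadjusted p-value was under 0.05 in all 6 such fits. Tnmd spans chrX:133850980-133865577 (GRCm38, plus strand) and overlaps no other annotated gene.

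Scx, the tendon cell transcription factor upstream of Tnmd, differed less. Its counts were 152, 139 and 147 in WT libraries (3.29, 3.60 and 3.08 CPM) and 92, 87 and 87 in M92KO libraries (2.65, 2.66 and 2.39 CPM). Here too the groups did not overlap. The means were 3.32 ± 0.261 and 2.57 ± 0.148 CPM, a log2 fold change of -0.37 (SE 0.15) with an adjusted p-value of 0.377 and an exact permutation p = 0.1. Without WT replicate 1, WT replicate 2, M92KO replicate 2 or M92KO replicate 3, the unadjusted p-value was no longer under 0.05, with fold changes between -0.42 and -0.31 over the fits that each left out 1 library. The same call was lost with DESeq2, with the replicate number as a block and with offsets for GC content and length. Scx (chr15:76457452-76459458, plus strand) lies within Bop1 on the opposite strand, with no shared exon bases, and whether counting used the strand is not given in the sources used here.

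Mkx, the other transcription factor, had the fewest reads in WT muscle. It had 18, 30 and 32 reads in WT libraries and 18, 15 and 18 reads in M92KO libraries, or 0.612 ± 0.20 against 0.490 ± 0.0304 CPM (SD, n = 3). WT replicate 1, at 0.389 CPM, was the lowest of the 6 libraries. It differed by -0.31 (SE 0.33) on the log2 scale, with an adjusted p-value of 0.763 and an exact permutation p = 0.4.

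Cilp2 was the third gene whose groups did not overlap, but it did not pass the test. Its counts were 60, 71 and 57 in WT and 40, 23 and 37 in M92KO libraries, or 1.44 ± 0.345 against 0.957 ± 0.231 CPM. This was a log2 fold change of -0.58 (SE 0.28), with an adjusted p-value of 0.448 and an exact permutation p = 0.1. In all, 3 of 9 members lay below WT in every M92KO library and none lay above, against 9.58% and 8.77% of all genes tested. Without M92KO replicate 1 the unadjusted p-value of Cilp2 was under 0.05, at -0.73.

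Thbs4, the most abundant of the markers, did not pass the test. Its counts were 4043, 3551 and 3474 in WT libraries (87.5, 91.9 and 72.8 CPM) and 2322, 2697 and 3484 in M92KO libraries (66.8, 82.3 and 95.9 CPM). The lowest and the highest level were both in M92KO muscle. Means were 84.0 ± 10.02 and 81.7 ± 14.5 CPM, with a log2 fold change of -0.041 (SE 0.14), an adjusted p-value of 0.938 and an exact permutation p = 0.8. The sign turned positive in some settings, for example 0.085 without M92KO replicate 1. Chad, which binds collagen and cell-surface integrins, had 36, 36 and 56 counts in WT and 30, 25 and 30 in M92KO libraries, or 0.961 ± 0.199 against 0.817 ± 0.0507 CPM. Its log2 fold change was -0.23 (SE 0.25), with an adjusted p-value of 0.765 and an exact permutation p = 0.3.

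Comp, Tnc and Cilp varied most between libraries of 1 genotype. The coefficient of variation over the WT libraries was 82.6% for Comp, 74.5% for Tnc and 48.3% for Cilp, where counting error alone would give 12.1%, 5.05% and 2.77%. For Scx it was 7.85%, against 8.28% from counting. Over the M92KO libraries it was 73.5% for Comp, 32.8% for Cilp and 6.15% for Tnc, against 18.3%, 2.42% and 7.86% from counting. The spread of Comp and Cilp thus lay above counting error in both genotypes, and that of Tnc in WT alone. Thbs4 also lay above it in both, at 11.9% against 1.65% in WT and 17.8% against 1.88% in M92KO. So did Cilp2, at 23.9% against 12.6% in WT and 24.1% against 17.3% in M92KO. Tnmd, Mkx and Chad, like Tnc, lay above counting error in WT alone.

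Tnc, a matrix glycoprotein of tendon and the myotendinous junction that is also made in bone and in injured tissue, had 750 counts in WT replicate 1. The other WT libraries held 227 and 199 counts, and the M92KO libraries held 151, 160 and 174. In CPM these were 16.2, 5.87 and 4.17 in WT and 4.35, 4.88 and 4.79 in M92KO muscle, so that WT replicate 3 was below every M92KO library. The log2 fold change was -0.91 (SE 0.44), as large as that of Tnmd, with an adjusted p-value of 0.462 and an exact permutation p = 0.4. Without WT replicate 1 it was -0.10 (SE 0.19), whereas without WT replicate 2 (-1.12) or WT replicate 3 (-1.25) its unadjusted p-value was under 0.05. Tnc shares 176 exon bases with the transcript 8030451A03Rik on the opposite strand.

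Comp, an extracellular matrix protein of cartilage and tendon related to Thbs4, had 136, 47 and 22 counts in WT and 53, 9 and 28 in M92KO libraries. The replicate 1 library was highest in both genotypes, at 3.51 times the mean of the other WT libraries and 2.92 times that of the other M92KO libraries. The log2 fold change of -0.84 (SE 0.70) had an adjusted p-value of 0.688 and an exact permutation p = 0.5. It was 0.059 without WT replicate 1 and -1.54 without M92KO replicate 1.

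Cilp was the only member with a positive fold change, and it did not pass the test with all 6 libraries. Cilp encodes a matrix protein first described in cartilage and also made by fibroblasts of heart and muscle. Its counts were 2097, 795 and 1024 in WT libraries (45.4, 20.6 and 21.4 CPM) and 1066, 1900 and 2158 in M92KO libraries (30.7, 58.0 and 59.4 CPM). The replicate 1 libraries lay between the other WT and the other M92KO libraries, with the WT one above the M92KO one. Means were 29.1 ± 14.1 and 49.4 ± 16.2 CPM, a log2 fold change of 0.76 (SE 0.34) with an adjusted p-value of 0.413 and an exact permutation p = 0.2.

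The call on Cilp changed without either of the replicate 1 libraries. The log2 fold change was 1.23 (SE 0.26, adjusted p-value 0.184) without WT replicate 1, 1.01 (SE 0.31, adjusted p-value 0.138) without M92KO replicate 1, and 1.48 (SE 0.074, adjusted p-value 0.000587) without both. Without WT replicate 1, only Tnmd was lower and only Cilp higher among the 9 markers at an unadjusted p-value under 0.05, where 5.87% of all genes tested were lower and 4.16% higher. Without both replicate 1 libraries the same 2 genes passed, where 9.19% were lower and 8.79% higher. Tnmd then had a log2 fold change of -0.85 (SE 0.21, adjusted p-value 0.0786). The fit on 2 against 2 libraries was chosen after the data were seen.

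**Figure D2:**
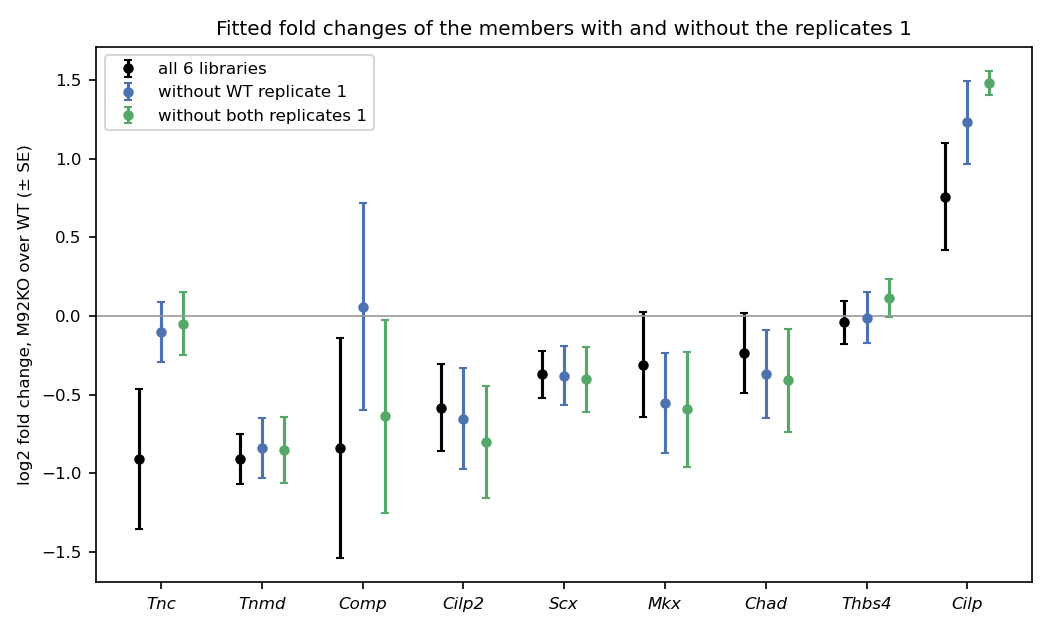
Log2 fold change of each tendon marker, M92KO over WT (vertical axis, points with SE bars), fitted on all 6 libraries, without WT replicate 1 and without both replicate 1 libraries. Tnmd stays between -0.91 and -0.84, Tnc moves from -0.91 to -0.10 and -0.049, and Cilp moves from 0.76 to 1.23 and 1.48.

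Some genes of bone and cartilage were highest in WT replicate 1, as Tnc and Comp were. In a list of 15 such markers, 13 had counts, and 6 of these were highest in that library. The others included 3 of the 4 that passed the filter on low counts, Sox9 (highest in WT replicate 3), Sox5 (M92KO replicate 2) and Col9a1 (WT replicate 2). Ibsp, a matrix protein of bone and the most abundant gene of the list, had 1614 counts in WT replicate 1 and 280 in M92KO replicate 1. It had 22 and 22 counts in the other WT libraries and 0 and 2 in the other M92KO libraries. The osteoblast transcription factor Sp7 (61, 2 and 0 counts in WT, 15, 0 and 3 in M92KO) and the cartilage proteoglycan aggrecan, Acan (132, 0 and 5 counts in WT, 15, 4 and 6 in M92KO), were also highest in the replicate 1 library of each genotype. So was tenascin W (Tnn), a bone-associated relative of Tnc, with 653, 17 and 11 counts in WT and 78, 13 and 7 in M92KO libraries. Sox9, Sox5, Col9a1, Sp7, Acan and Tnn were named after their values were seen.

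The 15 markers summed to 48.2, 9.57 and 11.2 CPM in WT and to 17.5, 7.94 and 7.85 CPM in M92KO libraries. Most of the excess in the replicate 1 libraries was Ibsp, since without it the sums were 13.3, 9.005 and 10.7 CPM in WT and 9.44, 7.94 and 7.79 CPM in M92KO libraries. Of the 4 that passed the filter, none was lower or higher at an unadjusted p-value under 0.05 (1 was lower without WT replicate 2 and 2 without M92KO replicate 1), and Matn1, Matn3, Snorc and Ucma, markers of cartilage, were at 3 counts or fewer in every library. Cilp, Tnc and Tnmd did not share this order in M92KO muscle. There, replicate 1 was lowest for Cilp and Tnc, and replicate 3 was highest for Tnmd. The part of bone or cartilage RNA in the levels of the tendon markers was not tested.

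**Figure D3:**
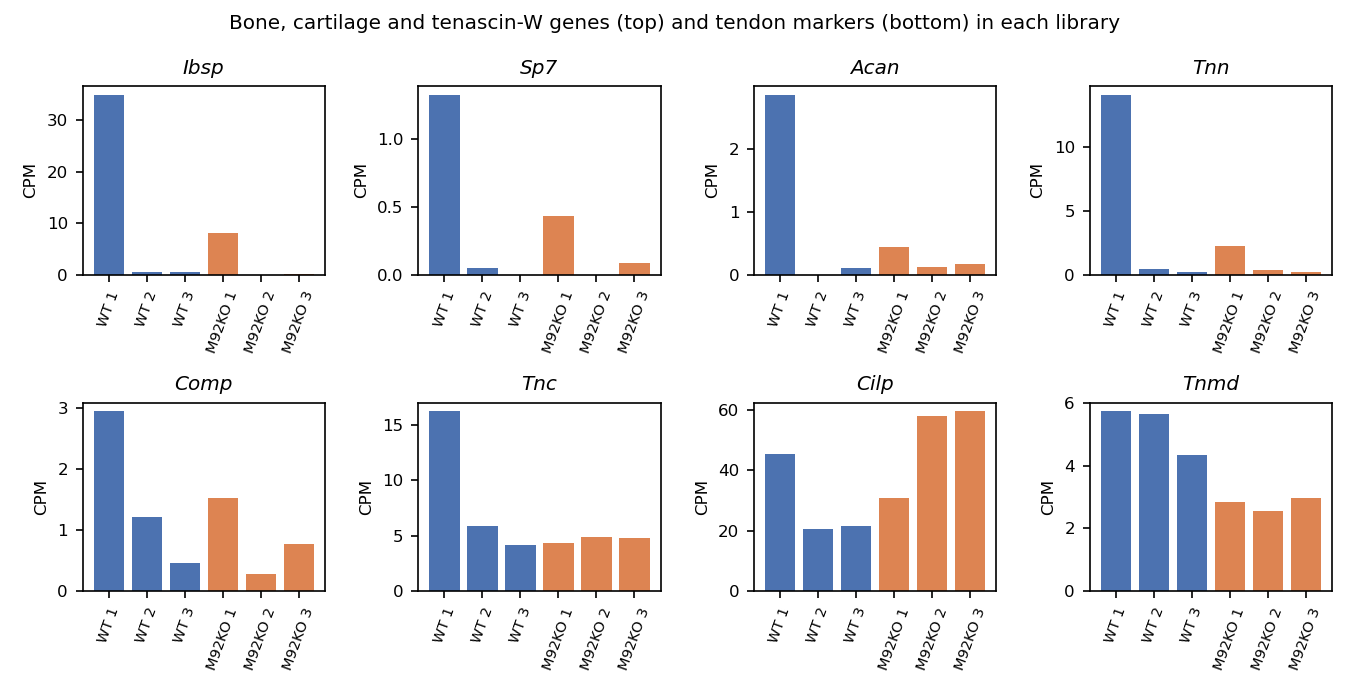
CPM (bars, from 0) of 3 bone and cartilage genes and tenascin W (top row) and of 4 tendon markers (bottom row) in each of the 6 libraries. WT replicate 1 is highest for all 4 genes of the top row and for Comp, Tnc and Tnmd, and M92KO replicate 1 is second for the top row and Comp but not for Tnc or Tnmd.

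The summed level of the 9 markers did not separate the genotypes. It was 163, 132 and 109 CPM in WT and 111, 153 and 169 CPM in M92KO libraries, a ratio of means of 1.07 that ran from 0.975 to 1.19 as each library was left out. Without Thbs4 and Cilp, the other 7 genes summed to 30.7, 19.9 and 15.1 CPM in WT and to 13.9, 12.3 and 13.3 CPM in M92KO libraries. These groups did not overlap, and Tnc of WT replicate 1 was their highest single value. This split was chosen after the values were seen. Within the WT group, replicate 3 had the lowest level for 6 of 9 members, and within the M92KO group, replicate 2 had the lowest for 5 of 9.

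Other genes of tendon cells were tested as a list of 20. Of these, 6 were lower and 1 was higher at an unadjusted p-value under 0.05, with a median log2 fold change of -0.20 and 15 negative values. Over all genes tested, 6.92% were lower and 5.47% higher by the same rule. Keratocan (Kera), a small proteoglycan of tendon and cornea, had 226, 265 and 352 counts in WT and 52, 63 and 101 in M92KO libraries, with a log2 fold change of -1.62 (SE 0.25, adjusted p-value 0.165). Decorin (Dcn), the most abundant of the list and the main small proteoglycan of tendon, was at 420, 400 and 400 CPM in WT and 295, 322 and 351 CPM in M92KO libraries. Its log2 fold change was -0.33 (SE 0.08, adjusted p-value 0.188). Osteoglycin (Ogn), of the same leucine-rich family, was at -0.23 (SE 0.07, adjusted p-value 0.255). Fibromodulin (Fmod, -0.71), Prelp (-0.32) and Tgfb3 (-0.18) were the others that were lower, and were named after their values were seen. Kera, Dcn and Ogn passed in 6 of 6 fits that each left out 1 library, Prelp passed in 3, and Fmod and Tgfb3 passed in 1.

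Lubricin (Prg4), which coats gliding surfaces of tendon and joint, was the gene that was higher. It had 343, 196 and 272 counts in WT and 303, 447 and 350 in M92KO libraries, with a log2 fold change of 0.81 (SE 0.20, adjusted p-value 0.195). The number of genes of this list that were lower ran from 4 to 6 when each library was left out in turn, and the number that were higher ran from 1 to 3, with 3 without M92KO replicate 1. With both replicate 1 libraries left out, 6 were lower and 4 were higher, where 9.19% of all genes tested were lower and 8.79% higher.

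On the muscle side of the myotendinous junction, 18 genes that link the fibre to its matrix or its outermost sarcomeres were tested. Of these, 4 were higher and 1 was lower at an unadjusted p-value under 0.05, with a median log2 fold change of 0.11. The lower one was Col22a1, a collagen of the junction itself, with 945, 962 and 777 counts in WT and 586, 398 and 570 in M92KO libraries and a log2 fold change of -0.46 (SE 0.17, adjusted p-value 0.346). It no longer passed without WT replicate 1, WT replicate 2 or M92KO replicate 2. The integrin chain Itga7, which ties the fibre to laminin, was higher by 0.29 (SE 0.08, adjusted p-value 0.225) on the log2 scale.

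Xirp1, an actin-binding repeat protein of the junction and of damaged fibres, was at 221, 170 and 209 CPM in WT and 201, 528 and 740 CPM in M92KO libraries. Its log2 fold change was 1.29 (SE 0.38, adjusted p-value 0.256), and M92KO replicate 1 lay within the WT values. The stretch-responsive ankyrin repeat gene Ankrd1 was at 18.9, 8.54 and 8.42 CPM in WT and 14.9, 27.96 and 31.4 CPM in M92KO libraries, with a log2 fold change of 1.05 (SE 0.36, adjusted p-value 0.313). Itga7 and Xirp1 passed in 6 of 6 fits with 1 library left out, and Ankrd1 passed in 2, without the replicate 1 library of either genotype. Talin 1 (Tln1, 0.26), which lies outside the naming rule, was the fourth gene that was higher. Nrap, the most abundant of the list, was at 0.43 (SE 0.19, adjusted p-value 0.422). The number of these genes that were higher was 2 without WT replicate 2, WT replicate 3, M92KO replicate 2 or M92KO replicate 3, and 11 without M92KO replicate 1. That last fit gave 2984 of all genes, in either direction, an unadjusted p-value under 0.05, against 1955 with all 6 libraries. Its share by direction is not given here. Without both replicate 1 libraries, 11 genes of the list were higher and 1 was lower, against 8.79% and 9.19% of all genes tested.

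Relatives of the markers, from the same gene families, were listed as well. Of 9 relatives, 7 passed the filter, 1 was lower and none was higher at an unadjusted p-value under 0.05. Among all genes tested, 6.92% were lower and 5.47% higher. Thrombospondin 1 (Thbs1), which activates latent TGF-β, was at 16.2, 50.7 and 94.7 CPM in WT and 8.06, 25.4 and 26.5 CPM in M92KO libraries, a log2 fold change of -1.43 (SE 0.60, adjusted p-value 0.390). Its groups overlapped, and of the fits with 1 library left out it passed in 1, that without WT replicate 1. Thbs3, the neighbour of Mir92b, was at -0.21 (SE 0.17, adjusted p-value 0.673). Tnxb, the most abundant relative and a tenascin of connective tissue, was at 0.14 (SE 0.10, adjusted p-value 0.631), and chondromodulin (Cnmd), the closest relative of Tnmd, was at 3 counts or fewer in every library.

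**Figure D4:**
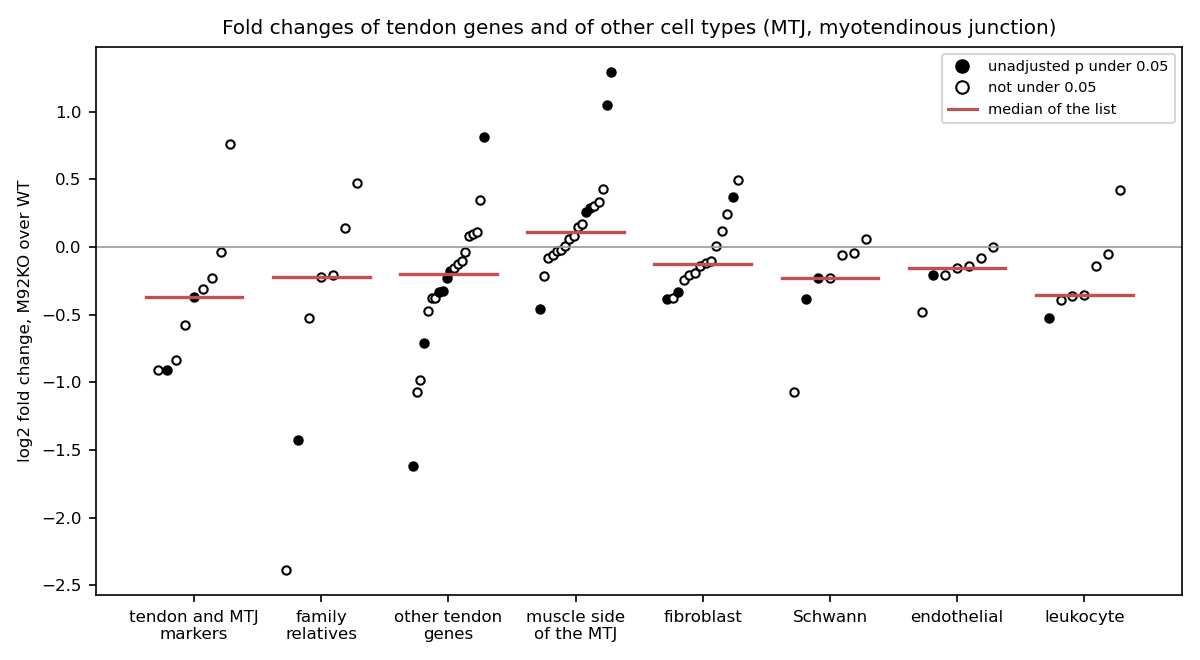
Log2 fold change, M92KO over WT (vertical axis), of every tested gene in the set of tendon markers and in 7 other lists, with filled points for an unadjusted p-value under 0.05 and a line at each list's median. The medians are -0.37 for the markers, -0.20 for other tendon genes and 0.11 for muscle-side genes of the myotendinous junction (MTJ). They are -0.23 for family relatives, -0.13 for fibroblast, -0.23 for Schwann, -0.16 for endothelial and -0.35 for leukocyte genes.

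Markers of the other cell types of the muscle were read beside these values. Each count below stands beside the share over all genes tested, 6.92% lower and 5.47% higher with all 6 libraries. The number of all genes that passed in either direction, 1955, ran from 1221 to 2984 with 1 library left out. Of 14 fibroblast genes, 2 were lower and 1 was higher at an unadjusted p-value under 0.05. The lower ones were Dcn, which is also on the tendon list, and Smoc2 (-0.38, SE 0.12, adjusted p-value 0.281), and the higher one was Ly6a (0.37, SE 0.10, adjusted p-value 0.234). Gsn, the most abundant, was at -0.12. All 3 passed in 6 of 6 fits with 1 library left out, while the number of fibroblast genes that were higher was 2 without WT replicate 1 and 3 without M92KO replicate 1, and 4 were lower without M92KO replicate 3. The list summed to between 1632 and 1879 CPM in WT and between 1411 and 1734 CPM in M92KO libraries, which overlapped.

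Of 7 Schwann cell genes, 2 were lower, the myelin genes Mbp (-0.39, SE 0.13, adjusted p-value 0.313) and Pmp22 (-0.23, SE 0.09, adjusted p-value 0.347). The number that were lower was 0 without WT replicate 2, 1 without WT replicate 1, M92KO replicate 1 or M92KO replicate 3, and 3 without WT replicate 3. Their list summed to between 95.5 and 122 CPM in WT and between 91.0 and 95.9 CPM in M92KO libraries. Among 7 endothelial genes the VEGF receptor Flt1 was lower (-0.21, SE 0.08, adjusted p-value 0.352), and Kdr, the most abundant, was at -0.0031. The number of endothelial genes that were lower ran from 0 (without WT replicate 2, WT replicate 3 or M92KO replicate 3) to 4 (without M92KO replicate 2). Among 7 leukocyte genes Ptprc, which encodes CD45, was lower (-0.53, SE 0.18, adjusted p-value 0.304), and Lyz2, the most abundant, was at -0.055. Here the number that were lower was 0 without WT replicate 2 or WT replicate 3 and 3 without M92KO replicate 3. With all 6 libraries, the median log2 fold change was -0.23 for the Schwann cell list, with 6 of 7 values negative. It was -0.16 for the endothelial list (7 of 7 negative) and -0.35 for the leukocyte list (6 of 7 negative). The leukocyte median was thus close to that of the tendon markers, -0.37.

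None of the fat, red cell and slow fibre genes passed 0.05 unadjusted. The most abundant of each were Car3 at -0.31, Hbb-bs, whose reads can be shared with its near copy, at 0.66 and Myl3 at -0.61. With 1 library left out, at most 3 genes of each of these lists passed in 1 direction. Car3 was the only negative one of the 7 fat genes tested, whose median log2 fold change was 0.62. Its WT mean of 1482 CPM made up most of the list's summed WT mean of 1813 CPM. Which cells the Car3 reads came from was not tested. Among the 10 fast fibre genes Myh2, the myosin of type IIa fibres, was higher (0.70, SE 0.24, adjusted p-value 0.314), but not without WT replicate 3, M92KO replicate 2 or M92KO replicate 3. The part of these cell types in the levels of Tnmd, Scx and the other tendon genes was not tested.

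The genes whose pattern over the 6 libraries was most like that of the markers were also found. Profiles were compared as log2 CPM centred on each gene's mean, over 13320 genes with at least 1 CPM on average. The 10 genes closest to the mean profile of the 9 markers were Lcat, C1qtnf6, Gldn, Gm46162, Lin7a, N4bp2, Gdf10, Zim1, Mmp14 and Fam217b, with root mean square differences between 0.0722 and 0.0846. The mean profile was highest in WT replicate 1 (0.38) and lowest in M92KO replicate 2 (-0.21). Among the markers themselves, Scx lay closest to this mean at 0.165 and Cilp farthest at 0.655. The 10 genes were picked for their closeness, so their distances cannot be set against those of the markers.

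Single markers had different neighbours, which were looked up after the values were seen. The profiles closest to Tnmd were those of Gm1987, the heparin-binding growth factor pleiotrophin (Ptn), Zfp185, fibulin 7 (Fbln7) and the transmembrane collagen Col23a1, at 0.109 to 0.153. Cilp lay closest to Ankrd1 (0.141), with the next gene, the stromal marker Cd248, at 0.253. Tnc lay closest to the osteoblast cadherin Cdh11 (0.213), and Comp to thrombospondin 2, Thbs2 (0.247), which was at 24.4, 9.11 and 7.20 CPM in WT and 12.5, 6.99 and 8.78 CPM in M92KO libraries. These likenesses rest on 6 libraries and carry no test.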

How the data were processed

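Libraries were made with a SMARTer mRNA kit. The authors deposited raw counts of reads for each gene symbol and library, and the submitters' processing notes name GRCm38 and mm10. The aligner, counting program, strandedness and annotation are not given in the sources used here. The members and the gene lists were chosen with earlier results of these data known. Genes named are all 9 members, up to 4 genes of each other list with the smallest unadjusted p-value under 0.05, the most abundant gene of each list, the 10 closest profiles (pseudocount 0.5 CPM), Kera and Col22a1. A gene of the Schwann cell list is not reported here and was left out of it.

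The counts were fitted with edgeR 4.0.16 under R 4.3.3 (filterByExpr, minimum count 10 and total 15; TMM; quasi-likelihood test of M92KO against WT; Benjamini-Hochberg over 15788 genes). The fit was also run on simulated counts in which no library was an outlier, and the outcome is not given here. CPM uses TMM library sizes, with factors from 0.981 to 1.03. Depth limits precision: 3 counts correspond to between 0.0622 and 0.0905 CPM, for counting error only. Alternatives were DESeq2 1.42.0, the study's steps (quantile normalization, log2 of the value plus 1, limma 3.58.1), other filters and size factors, GC content and length offsets, a replicate block and each library left out. Exon lengths and 3′-UTRs came from GENCODE M21, which matched 25731 symbols by name and 422 by a synonym. All 9 members matched.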

Additional observations from a re-analysis of the deposited data

How the results depend on the processing

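The log2 fold change of Tnmd kept its sign and an unadjusted p-value under 0.05 in all 16 alternatives. The number of members that were lower at that threshold (2 with all libraries) was 1 with DESeq2, the replicate block, the GC content and length offsets with or without the block, and both replicate 1 libraries left out, and 3 without a filter on low counts, where Tnc passed too. It ran from 1 to 3 over the fits that each lacked 1 library. The number that were higher (0) was 1 without a filter on low counts, with the GC content and length offsets and with both replicate 1 libraries left out, each time Cilp, and ran from 0 to 1 over the left-out libraries. The number with an adjusted p-value under 0.05 (0) was 1 with DESeq2 (Tnmd) and with both replicate 1 libraries left out (Cilp), and ran from 0 to 1. The log2 fold change of Thbs4 changed sign to 0.00049 with the GC content and length offsets, 0.028 without WT replicate 2, 0.085 without M92KO replicate 1 and 0.12 without both replicate 1 libraries, and Comp to 0.059 without WT replicate 1. Over the fits that each lacked 1 library, Thbs4 ran from -0.17 to 0.085 and Comp from -1.54 to 0.059. The cause was not tested.

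Over all genes, 0 passed an adjusted p-value under 0.05, against 312 with DESeq2, 42 with the study's limma steps, 6 without a filter, 2 with the replicate block and 523 without both replicate 1 libraries. Over the fits that each lacked 1 library, the number ran from 0 to 399, with 399 without M92KO replicate 1, and the number at an unadjusted p-value under 0.05 (1955) ran from 1221 to 2984.

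Same-numbered WT and M92KO libraries deviated from their group means with correlations of 0.0806, 0.0376 and 0.0151. Correlations this small cannot tell whether the numbers mark pairs. Each M92KO library correlated best with the WT library of its own number. WT replicates 2 and 3 both correlated best with M92KO replicate 2. With the replicate block, Tnmd was at -0.90 and Scx at -0.37, and Scx lost its call. Counting error was 19.4% for Mkx and 15.3% for Chad over the WT libraries, which limits what could be detected for them.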
